A study of Homo sapiens with 14 samples.

Results

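The genes described here are those whose messenger RNA, in cultures given a low Wnt dose together with TGF-beta 1, stood above its level both in the same cultures without TGF-beta 1 and in the starting stem cells. Levels are counts-per-million (CPM), that is, counts divided by the library total. A gene was kept where the mean of the 2 low Wnt + TGFB libraries was at least 5 CPM, at least 2 times the low Wnt mean and at least 2 times the stem cell mean. Of 26485 genes in the table, 128 passed, 22 were set aside by name (anterior neural, endoderm and Wnt target genes, and collagen, cadherin, semaphorin, Wnt and LINC gene names), and 106 remained. All 106 were among the 16149 genes tested, where they made up 0.656%. Because 67 of them reached 5 CPM in some other group, the other 39 owed their level of 5 CPM to low Wnt + TGFB alone. RefSeq lists 100 of the 106 as protein coding.

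Polyadenylated RNA was sequenced from WA01 cells, a human embryonic stem cell line also known as H1, and from neural crest cultures made from them. The stem cell group, without induction, is called hESC. All 6 other groups were collected at day 5 of induction with CHIR99021, a GSK3 inhibitor that turns on canonical Wnt signaling, present for hours 0 to 72 at 3 µM (low Wnt) or 10 µM (high Wnt). At each dose 1 group had CHIR99021 alone, 1 also had 10 µM SB431542 (SB4), an inhibitor of the receptor kinases ALK4, ALK5 and ALK7, and 1 also had recombinant human TGF-beta 1 (TGFB) at 5 ng/µL, the unit printed in the labels, both for hours 0 to 120. Each group had 2 libraries, of 10879287 to 19106827 counts. All came from 1 cell line, and nothing in the labels says whether replicate libraries came from separate cultures, so p-values measure only the spread between these libraries. In bulk RNA, more cells of a type and more RNA per cell cannot be told apart.

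TGF-beta binds a pair of receptor kinases at the cell surface, which phosphorylate SMAD2 and SMAD3, and these enter the nucleus with SMAD4 and act on genes together with other transcription factors. Activin and Nodal use the same SMADs, which help to hold pluripotent cells in their state and, with Wnt signals, direct mesendoderm formation. In neural crest induction from stem cells, canonical Wnt signaling and a moderate level of BMP signaling are the classical inducing cues.

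The 2 libraries of low Wnt + TGFB were not alike. Of the 106 genes, 82 were higher in replicate 2 than in replicate 1, 25 of them by at least 1.5 times. None was higher in replicate 1 by 1.5 times. The same counts over all genes tested were not made, so this tilt is not read as particular to the 106. The 7 with a gap of at least 2 times were HLA-E, MSX1, MSX2, GATA3, OTOGL, ERBB4 and HAS2. Without replicate 2 the rule gave 94 genes, 82 of them among the 106, and without replicate 1 it gave 127, 104 of them among the 106. The summed level of 12 definitive endoderm markers also differed, at 86.5 CPM in replicate 1 and 158 CPM in replicate 2. This sum is not independent of the rule: 6 of the 12 (SOX17, FOXA2, GATA4, GATA6, CXCR4 and EOMES) passed its thresholds and were only set aside by name, and the other 6 summed to 9.59 and 11.8 CPM.

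Other cell type markers moved with low Wnt + TGFB as well. The 15 forebrain and midbrain markers summed to 226 and 240 CPM there, against 30.0 and 34.7 CPM in low Wnt and 49.95 and 54.2 CPM in hESC, with RAX at 0 in both low Wnt + TGFB libraries. The 10 pluripotent stem cell markers summed to 3427 and 3905 CPM, between low Wnt (1608 and 1868 CPM) and hESC (7249 and 6931 CPM). Most of the forebrain and midbrain sum came from OTX2, DMBX1 and LHX5, which passed the thresholds of the rule. The other 12 summed to 15.9 and 18.6 CPM with TGFB, 9.43 and 9.54 CPM in low Wnt and 17.6 and 18.7 CPM in hESC, so they did not stand above hESC. The 6 endoderm markers that did not pass the thresholds were at 0.901 and 0.716 CPM in low Wnt and at 5.64 and 5.72 CPM in hESC. The neural crest markers other than PAX3 and TFAP2A, which are among the 106, were at 170 and 174 CPM in low Wnt and at 180 and 191 CPM with TGFB. In hESC they were at 231 and 209 CPM. Within this sum markers moved in opposite ways. NGFR was at 91.8 and 98.6 CPM in low Wnt and at 49.9 and 54.1 CPM with TGFB. ERBB3 was at 17.9 and 17.3 CPM and at 42.4 and 46.6 CPM, and ETS1 at 13.6 and 15.8 CPM and at 33.2 and 36.2 CPM. Both were highest in hESC, ERBB3 at 83.5 and 69.8 CPM and ETS1 at 88.0 and 67.1 CPM. NGFR was at 17.7 and 22.4 CPM in hESC, below its level in low Wnt and with TGFB. Which cells carried the 106 transcripts was not tested.

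**Figure D1:**
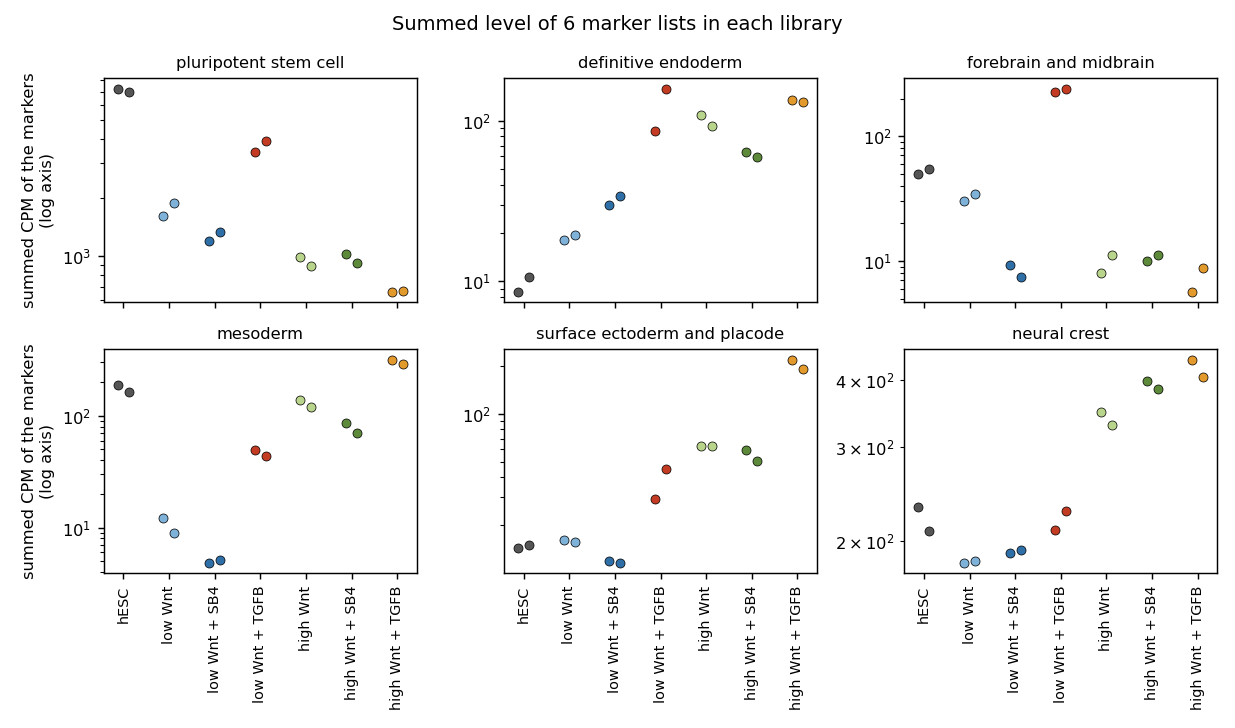
Summed CPM (log axis) of 6 marker lists in each of the 14 libraries, 2 points per group. The sums hold genes that passed the thresholds of the rule: without them the forebrain and midbrain sum in low Wnt + TGFB was 15.9 and 18.6 CPM in place of 226 and 240 CPM, and the definitive endoderm sum 9.59 and 11.8 CPM in place of 86.5 and 158 CPM.

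The genes were chosen by their mean CPM in low Wnt + TGFB, low Wnt and hESC, and these values are given here as a description. The low Wnt + TGFB mean ran from 5.01 to 657 CPM, with a median of 14 CPM, against medians of 3.38 CPM in low Wnt and 1.97 CPM in hESC. It was over 100 CPM for 10 genes, 10 to 100 CPM for 57 and 5 to 10 CPM for 39. The smaller of the 2 ratios of each gene had a median of 3.02 and lay under 3 for 52 genes. At least 10 was reached by 18 genes.

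Genes on either side of each threshold had nearly the same values. For the level, SLC39A4 (5.01 CPM) was inside and PLA2G7 (4.82 CPM) outside. For the ratio to low Wnt, PCGF2 (2.02) was inside and EHHADH (1.98) outside, and for the ratio to hESC, ARSE (2.02) was inside and MGST2 (1.96) outside. PCGF2 was also uneven between replicates, at 4.73 and 16.2 CPM in hESC and 6.24 and 18.8 CPM in low Wnt, and it is listed on more than 1 contig, as are GTPBP6 and HLA-E, whose reads may be split between copies.

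**Figure D2:**
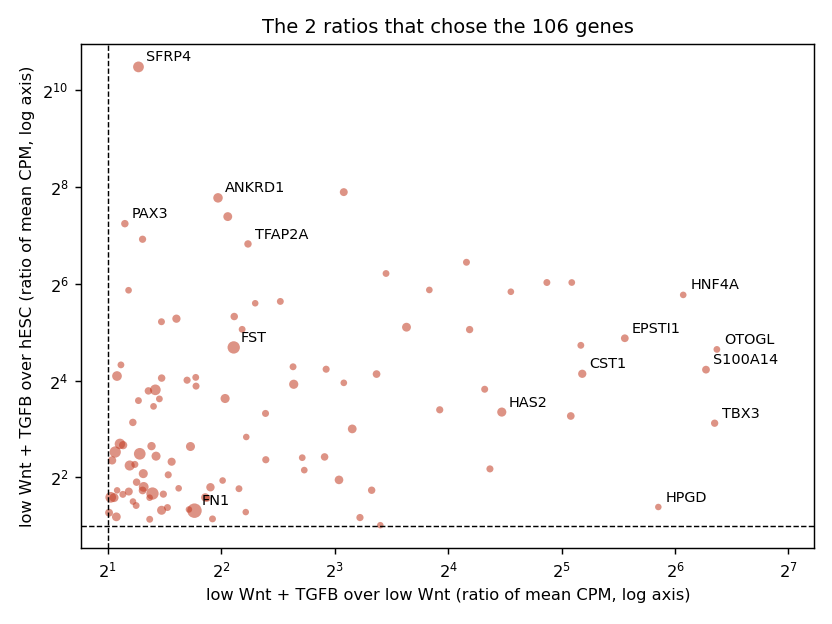
Each of the 106 genes by the ratio of its low Wnt + TGFB mean CPM to low Wnt (horizontal, log axis) and to hESC (vertical, log axis), with point area rising with its level and dashed lines at the thresholds of 2. A group with under 3 counts was set at 3 counts, as for HNF4A, whose smaller ratio was 54.6. SFRP4 lies at the top left, far above hESC and close to the low Wnt threshold.

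Some of the genes with the highest smaller ratio were almost silent outside low Wnt + TGFB. HNF4A, the hepatocyte nuclear factor found in liver and gut endoderm, was at 4.16 and 7.92 CPM in low Wnt + TGFB and at most 0.126 CPM in each of the other libraries. S100A14, a small calcium-binding protein of epithelia, was at 15.9 and 30.4 CPM there, at 0.300 and 0.298 CPM in low Wnt and at 1.62 and 0.851 CPM in hESC. CST1, a secreted inhibitor of cysteine proteases, was at 30.7 and 38.7 CPM, with 0.480 and 1.43 CPM in low Wnt. In each of these genes the low Wnt + TGFB libraries stood apart from the rest. SLC5A9, a sugar transporter, had 5.20 and 9.03 CPM and no counts in either SB4 library at low Wnt. OTOGL, an otogelin-like protein known from the inner ear, was at 4.46 and 10.3 CPM against 0 and 0.179 CPM in low Wnt. Each of these 5 was under 1 CPM in the high Wnt groups.

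Other genes with a large smaller ratio were not restricted to the low dose. GAD1, which makes the transmitter GABA, was at 12.3 and 17.1 CPM in low Wnt + TGFB and at 0.721 and 0.895 CPM in low Wnt, yet it reached 86.8 and 74.1 CPM in high Wnt. CNTNAP4, a neurexin-family adhesion protein, was at 8.70 and 10.6 CPM in low Wnt + TGFB and at 47.4 and 53.2 CPM in high Wnt + SB4. PAPPA, a protease that cleaves IGF-binding proteins, was at 52.9 and 54.8 CPM in low Wnt + TGFB, 4.14 and 4.53 CPM in low Wnt and 25.2 and 31.6 CPM in high Wnt. GAD1 was thus higher in each high Wnt group than in low Wnt + TGFB, and CNTNAP4 in high Wnt and high Wnt + SB4 but not in high Wnt + TGFB, where it was at 7.35 and 6.98 CPM. PAPPA was lower in each high Wnt group.

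Per kilobase of annotated exon, FST was the most abundant of the 106 in low Wnt + TGFB, at 149 CPM per kb. PKDCC, a secreted kinase, followed at 94.8 CPM per kb, and VAT1L at 80.6 CPM per kb. FN1, the matrix protein fibronectin, was at 73.1 CPM per kb, BST2, an interferon-induced membrane protein also called tetherin, at 58.5 CPM per kb and SFRP4, a secreted Wnt antagonist, at 53.2 CPM per kb. The 2 Iroquois homeobox genes IRX2 and IRX1 had 50.2 and 48.8 CPM per kb.

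Across the 7 groups, low Wnt + TGFB had the highest mean for 71 of the 106 genes, high Wnt + TGFB for 18, high Wnt + SB4 for 12 and high Wnt for 5. Both low Wnt + TGFB libraries lay above all 12 others for 67 genes, where the background is 4.47% of the genes tested; the rule favours such genes, so nothing is read from that count. The low Wnt mean was above the hESC mean for 72 genes. At the other end, 20 genes were under 1 CPM in each of the 3 high Wnt groups. Besides HNF4A, S100A14, CST1, SLC5A9 and OTOGL, they were SFRP4, LGI1, FAM20A, TFAP2A, RMST, C6orf141, GATA3, PCAT14, LMO1, LHX5-AS1, POU4F1, FAM198B, LRRC3B, ERBB4 and HPGD.

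**Figure D3:**
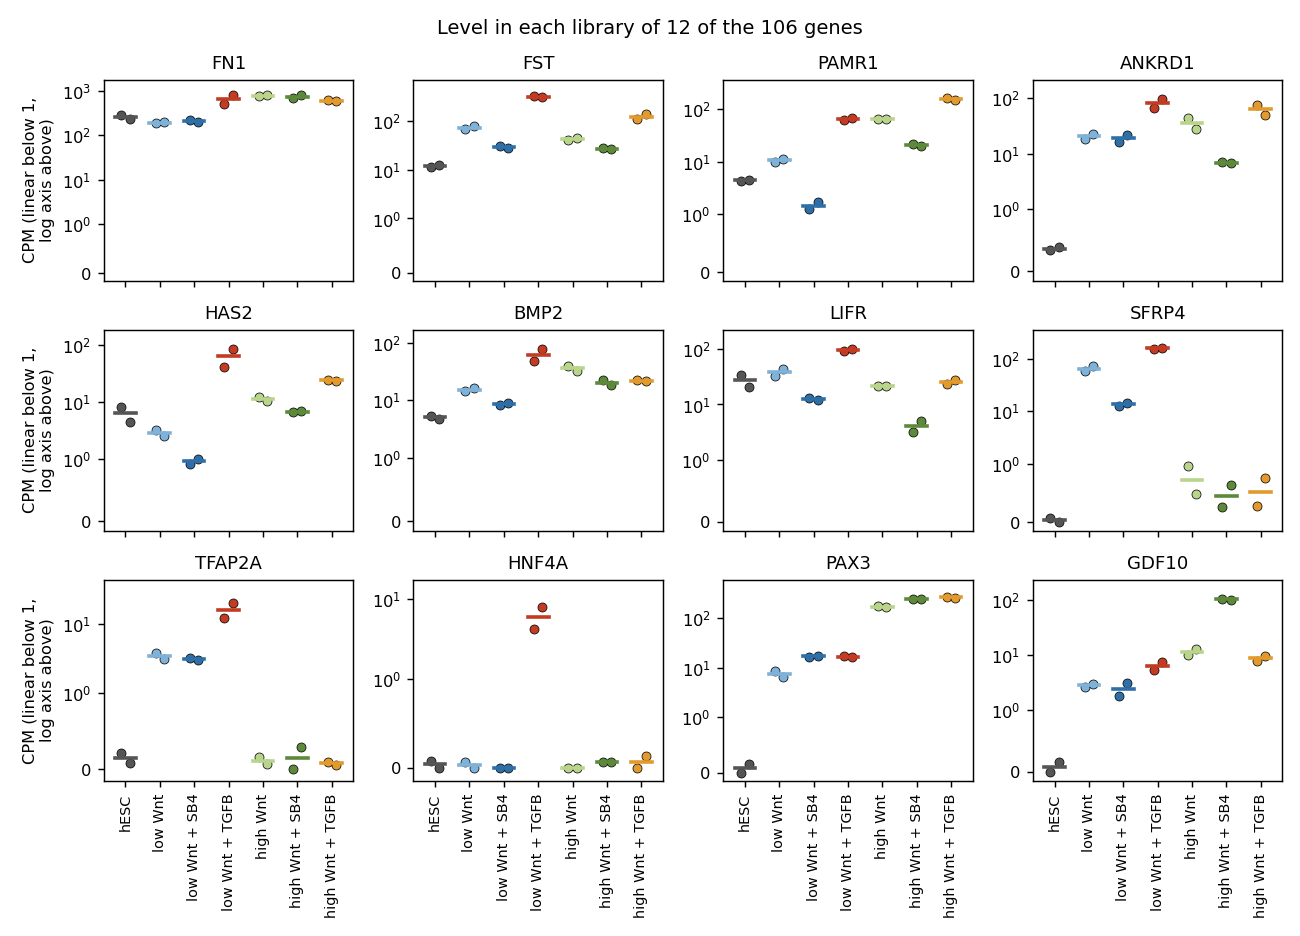
CPM of 12 of the 106 genes in each library (points) with the group mean (bars), on an axis that is linear below 1 CPM and logarithmic above. SFRP4, TFAP2A and HNF4A were near 0 in the 3 high Wnt groups, whereas PAX3 and GDF10 were higher there than in low Wnt + TGFB, GDF10 at 106 and 99.7 CPM with SB4.

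Of 26 tested genes of the BMP pathway, 6 belonged to the 106. BMP2, a ligand, was at 47.9 and 76.8 CPM in low Wnt + TGFB, 14.4 and 16.1 CPM in low Wnt and 5.36 and 4.72 CPM in hESC. NOG, which binds and blocks BMP ligands, was at 6.39 and 9.83 CPM against 4.50 and 2.98 CPM in low Wnt. BMPER, an extracellular BMP modulator, was at 9.14 and 7.86 CPM against 2.16 and 2.80 CPM. The 6 thus hold a ligand and 2 secreted regulators of BMP, whose place above both comparison groups was set by the rule. Among genes that respond to BMP, ID4, an inhibitor of basic helix-loop-helix factors, was at 125 and 176 CPM against 58.9 and 53.9 CPM in low Wnt. MSX1 and MSX2, homeobox genes of the neural plate border, were at 5.50 and 13.6 CPM and at 6.69 and 15.6 CPM, the 2 replicates being more than 2 times apart.

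Of the TGF-beta targets and feedback genes, 2 of 39 tested were among the 106. FST encodes follistatin, which binds and blocks activin. It was at 319 and 307 CPM in low Wnt + TGFB, 67.1 and 77.8 CPM in low Wnt, 31.2 and 28.2 CPM in low Wnt + SB4 and 11.6 and 12.7 CPM in hESC. The 4 groups did not overlap, and SB4 lay between hESC and low Wnt. FN1 was at 513 and 801 CPM in low Wnt + TGFB, 189 and 198 CPM in low Wnt and 295 and 234 CPM in hESC, but its 6 high Wnt libraries had 585 to 817 CPM, which overlapped low Wnt + TGFB. GDF10, a ligand of the TGF-beta superfamily, was the only member among 37 tested ligands, receptors and latency proteins, at 5.43 and 7.48 CPM against 2.70 and 2.98 CPM in low Wnt.

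The neural crest specifiers gave 4 members of 30 tested: PAX3, TFAP2A, MSX1 and MSX2. PAX3, a paired-box factor of the neural plate border, was at 17.2 and 16.3 CPM in low Wnt + TGFB and 8.47 and 6.62 CPM in low Wnt, but low Wnt + SB4 was as high, at 16.7 and 17.3 CPM. Receptor block and ligand thus gave overlapping PAX3 levels at the low dose. TFAP2A, a factor of the non-neural ectoderm and crest, was at 12.5 and 20.2 CPM in low Wnt + TGFB and at 3.78 and 3.16 CPM in low Wnt. It was at most 0.287 CPM in the high Wnt libraries, whereas PAX3 was at 168 to 266 CPM there.

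Of 51 tested Wnt pathway genes other than ligands, 5 belonged to the 106. SFRP4 was at 153 and 163 CPM in low Wnt + TGFB, 58.8 and 72.2 CPM in low Wnt, 12.6 and 14.4 CPM in low Wnt + SB4, and at most 0.968 CPM in every hESC and high Wnt library. TNFRSF19, a receptor of the TNF family known as a Wnt target, was at 31.9 and 36.7 CPM against 10.5 and 12.05 CPM in low Wnt. The Wnt receptor FZD8 was at 26.2 and 30.2 CPM against 12.6 and 12.2 CPM. SHISA3 and RNF43, both of which restrain Wnt receptors, were at 9.81 and 12.4 CPM and at 8.92 and 9.22 CPM. The 5 hold a Wnt receptor and 3 inhibitors of the pathway. Their place above low Wnt and hESC was set by the rule.

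Mesendoderm and endoderm genes gave 5 members of 27 tested. Beside HNF4A and S100A14 these were HAS2, the hyaluronan synthase, PRDM1, a zinc finger repressor, and GATA3, a zinc finger factor of several early lineages. HAS2 was at 41.9 and 85.8 CPM in low Wnt + TGFB, 3.24 and 2.51 CPM in low Wnt and 8.11 and 4.41 CPM in hESC. PRDM1 was at 10.5 and 13.4 CPM against 3.72 and 3.64 CPM in low Wnt. All 5 were higher in replicate 2 than in replicate 1. So were 82 of the 106, and the tilt is not read as particular to these 5. TBX3, a T-box factor, was also higher in replicate 2, at 10.4 and 18.8 CPM, with 0.0600 and 0.298 CPM in low Wnt.

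Several members are neighbours in the genome. IRX2 (hg38 chr5:2746165-2751655, minus strand) and C5orf38 (chr5:2752131-2755397, plus strand) are 0.476 kb apart, and IRX1 (chr5:3596054-3601403) lies 844 kb from IRX2. EGFLAM and LIFR are 9.48 kb apart on chromosome 5, FAM198B and TMEM144 37.2 kb apart on chromosome 4, and MYO3B and GAD1 162 kb apart on chromosome 2. IRX2 was at 141 and 166 CPM in low Wnt + TGFB and 76.6 and 74.2 CPM in low Wnt, C5orf38 at 29.5 and 32.2 CPM against 11.3 and 9.60 CPM. Counting used the strand, so reads of this divergent pair were assigned apart. LIFR, the receptor for leukemia inhibitory factor, was at 91.4 and 101 CPM against 33.2 and 44.1 CPM in low Wnt.

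SB4 in low Wnt was compared without a test, since the rule used low Wnt. The median difference of the 106 was -0.65 on the log2 scale, against 0 over all genes tested. Both SB4 libraries were below both low Wnt libraries for 64 genes, with a background of 27.0%, and above both for 15, with a background of 29.6%. PAMR1, a secreted protease-related protein, was at 1.21 and 1.67 CPM with SB4 and 9.97 and 11.3 CPM without. HAS2 was at 0.911 and 0.994 CPM with SB4, PAPPA at 0.607 and 1.1 CPM, and MAF, a leucine zipper factor, at 2.49 and 2.98 CPM against 14.2 and 14.3 CPM. FBN2, which builds microfibrils, went the other way, at 165 and 163 CPM with SB4 and 92.3 and 97.8 CPM without, and was at 177 and 221 CPM with TGFB.

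The high Wnt groups played no part in choosing the genes, so TGFB was tested there. The quasi-likelihood test of edgeR, with p adjusted by Benjamini-Hochberg over all 16149 genes, called 16 of the 106 higher with TGFB than in high Wnt, or 15.1%, where 3.75% of all genes tested were called. It called 5 lower, or 4.72%, against 3.49% of all genes. The median log2 difference of the 106 was 0.22 and that of all genes 0, and 85 of the 106 passed in neither direction. The 16 were FST, PAMR1, CCBE1, SAMD11, TBX3, TNFRSF19, BST2, PAX3, PKDCC, FBN2, HAS2, GATA3, KIAA1456, VAT1L, TFPI and ANKRD1. The count fell to 9 without high Wnt + TGFB replicate 1, and to 10 without either its replicate 2 or high Wnt replicate 2.

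Among secreted proteins and the matrix, FST was at 40.4 and 44.0 CPM in high Wnt and 109 and 137 CPM with TGFB, a log2 difference of 1.49 (SE 0.12, edgeR adjusted p = 1.10e-06). PAMR1 was at 64.7 and 64.0 CPM and at 167 and 150 CPM, a log2 difference of 1.24 (SE 0.11, edgeR adjusted p = 2.37e-06). CCBE1, a matrix protein needed for lymphatic growth, was at 0.645 and 0.820 CPM and at 6.34 and 8.49 CPM, a log2 difference of 3.26 (SE 0.30, edgeR adjusted p = 3.99e-06). In all 3 the groups did not overlap, although CCBE1 stayed below its low Wnt + TGFB level of 11.2 and 15.03 CPM. HAS2 rose from 12.3 and 10.6 CPM to 24.4 and 23.9 CPM, with a log2 difference of 1.02 (SE 0.27, edgeR adjusted p = 0.0295). FBN2 rose from 402 and 507 CPM to 719 and 675 CPM, with a log2 difference of 0.56 (SE 0.14, edgeR adjusted p = 0.0219).

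Among transcription factors, TBX3 was at 0.0807 and 0.478 CPM in high Wnt and 2.85 and 3.21 CPM with TGFB, a log2 difference of 3.28 (SE 0.57, edgeR adjusted p = 0.00190). GATA3 had no counts in high Wnt and 0.276 and 0.943 CPM with TGFB, at least 5.49-fold higher against a floor of 3 counts over the group (edgeR adjusted p = 0.0335). Both stayed far below their low Wnt + TGFB levels. PAX3 rose from 172 and 168 CPM to 266 and 254 CPM, with a log2 difference of 0.55 (SE 0.11, edgeR adjusted p = 0.00441). Surface ectoderm and placode markers moved in the same comparison: the 8 of 10 that are not among the 106 summed to 58.5 and 58.9 CPM in high Wnt and to 214 and 185 CPM with TGFB, with KRT5 and KRT14 at 0 in all 4 libraries. Mesoderm markers summed to 140 and 121 CPM and to 318 and 288 CPM. MEOX1 made up most of this rise, at 73.2 and 71.3 CPM and then 238 and 216 CPM. TCF15 and KDR rose by fewer CPM, TCF15 from 32.4 and 23.4 CPM to 43.3 and 42.8 CPM. TBX6 and MESP2 did not rise, with MESP2 at 3.15 and 2.46 CPM and then 1.93 and 1.07 CPM. The mesoderm sum thus mostly follows a single gene. The part of these markers in the differences was not tested.

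The 5 genes that fell with TGFB in high Wnt, although TGFB raised them in low Wnt by the rule, were CNTNAP4, VWF, BMP2, BLACAT1 and GAD1. They were 4.72% of the 106, near the 3.49% of all genes tested that were called lower, so nothing is read from their number. CNTNAP4 was at 21.5 and 25.0 CPM in high Wnt and at 7.35 and 6.98 CPM with TGFB, a log2 difference of -1.76 (SE 0.18, edgeR adjusted p = 1.17e-05). VWF, the von Willebrand clotting factor of endothelium, was at 5.49 and 7.11 CPM and at 3.68 and 2.89 CPM, a log2 difference of -1.02 (SE 0.24, edgeR adjusted p = 0.0144). BMP2 was at 39.9 and 31.9 CPM and at 22.4 and 21.3 CPM, a log2 difference of -0.78 (SE 0.19, edgeR adjusted p = 0.0163). The groups did not overlap in any of these 3. Between 1 and 7 genes fell when single libraries were left out, with 1 without high Wnt + TGFB replicate 2, and 2 without its replicate 1 or without high Wnt replicate 1.

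**Figure D4:**
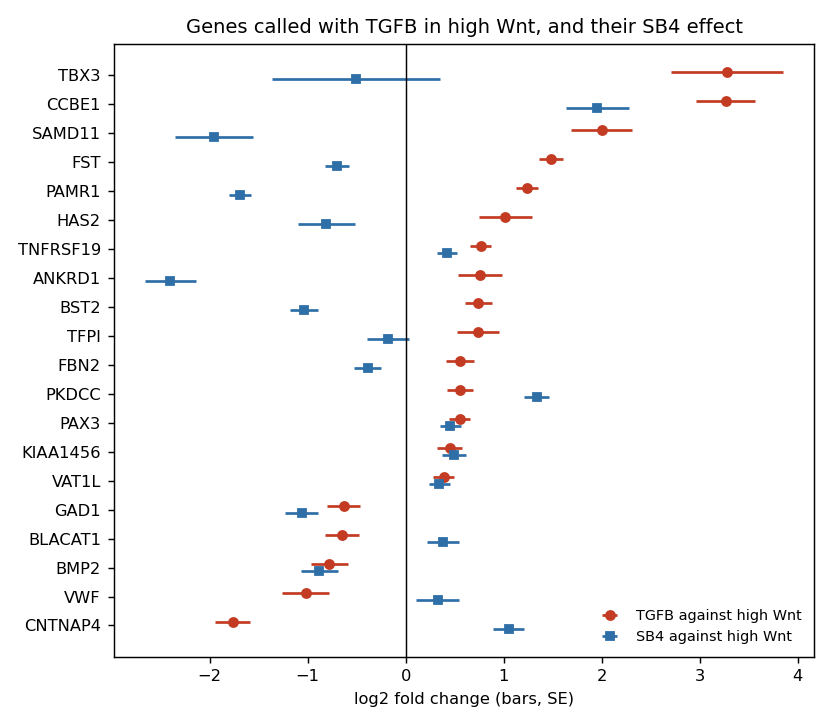
Log2 fold change with SE of 20 of the 21 genes called with TGFB in high Wnt (circles), and the SB4 value of the same genes (squares); both use the same high Wnt libraries. GATA3 is left out because it had no counts in high Wnt. CCBE1 lay above 0 with either additive, at 3.26 and 1.95, and CNTNAP4 moved from -1.76 with TGFB to 1.05 with SB4.

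Blocking the receptors in high Wnt moved the genes both ways. SB4 lowered 22 of the 106, or 20.8%, where 11.6% of all genes tested were lower, and raised 18, or 17%, against 9.94% of all genes. The median of the 106 was 0 and that of all genes 0.00. Cell type markers moved between the same libraries: 10 smooth and cardiac muscle markers summed to 1623 and 1418 CPM in high Wnt and to 257 and 288 CPM with SB4, and 9 mesoderm markers to 140 and 121 CPM and to 85.8 and 70.6 CPM. MYH11 was at 0 counts in both SB4 libraries. The part of these markers in the result was not tested. PAPPA was at 25.2 and 31.6 CPM in high Wnt and 1.03 and 1.95 CPM with SB4, a log2 difference of -4.28 (SE 0.24, edgeR adjusted p = 6.38e-09). LIFR was at 21.9 and 21.7 CPM and at 3.23 and 5.11 CPM, a log2 difference of -2.43 (SE 0.23, edgeR adjusted p = 1.89e-06). RHOB, a small GTPase, was at 421 and 450 CPM and at 79.9 and 104 CPM, a log2 difference of -2.30 (SE 0.21, edgeR adjusted p = 9.75e-07). For these 3 genes TGFB in high Wnt gave no call, with log2 differences of 0.47, 0.17 and -0.13.

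The genes raised by SB4 included a ligand and homeobox genes. GDF10 was at 10.0 and 12.9 CPM in high Wnt, 106 and 99.7 CPM with SB4 and 8.0 and 9.56 CPM with TGFB, and the SB4 log2 difference was 3.10 (SE 0.20, edgeR adjusted p = 1.75e-08). PKDCC was at 18.7 and 21.3 CPM and at 47.6 and 57.6 CPM with SB4, a log2 difference of 1.34 (SE 0.13, edgeR adjusted p = 1.61e-06). IRX2 was at 21.9 and 25.7 CPM and at 48.3 and 47.8 CPM, a log2 difference of 0.96 (SE 0.12, edgeR adjusted p = 4.69e-05). Its neighbour C5orf38 rose as well, with a log2 difference of 1.29 (SE 0.22, edgeR adjusted p = 0.000594). The number of genes raised was 10 without high Wnt replicate 1, 11 without high Wnt replicate 2 and 11 without high Wnt + SB4 replicate 2.

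Sorted by both additives against the shared high Wnt libraries, 5 of the 106 were higher with TGFB and lower with SB4 (4.72%, against 1.02% of all genes tested): ANKRD1, BST2, FST, PAMR1 and SAMD11. CNTNAP4 was the only gene with the opposite pair of calls (0.943%, against 0.564% of all genes). CCBE1, KIAA1456, PAX3, PKDCC, TNFRSF19 and VAT1L were higher with either additive (5.66%, against 0.675% of all genes), and BMP2 and GAD1 lower with either (1.89%, against 1.24% of all genes). Across these and the contrast of TGFB with SB4, 44 genes had no call (41.5%, against 67.1% of all genes).

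ANKRD1, a nuclear ankyrin-repeat protein known as a YAP target, was at 42.9 and 27.1 CPM in high Wnt, 74.1 and 49.99 CPM with TGFB and 6.97 and 6.83 CPM with SB4. Its rise with TGFB (log2 difference 0.76, SE 0.22, edgeR adjusted p = 0.0489) sat at the threshold and remained called in 11 of 21 alternatives, with adjusted p up to 1.0 when a log2 difference of at least 1 was asked for. BST2 was at 57.4 and 54.9 CPM, at 98.4 and 97.8 CPM with TGFB and at 31.0 and 26.0 CPM with SB4. SAMD11, a nuclear protein with a sterile alpha motif, was at 2.26 and 2.32 CPM, at 8.73 and 10.4 CPM with TGFB and at 0.645 and 0.574 CPM with SB4. In each of these genes the 3 high Wnt groups did not overlap.

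The promoters of the 5 genes that were higher with TGFB and lower with SB4 are shown because these genes responded to both additives in groups the rule did not use. Each is the 250 bases before the RefSeq start (GRCh38.p14), on the strand of the gene, with searched motifs in capitals. Gene starts of RefSeq and of the count table are not identical.
ANKRD1 (chr10:90921088-90921337, minus): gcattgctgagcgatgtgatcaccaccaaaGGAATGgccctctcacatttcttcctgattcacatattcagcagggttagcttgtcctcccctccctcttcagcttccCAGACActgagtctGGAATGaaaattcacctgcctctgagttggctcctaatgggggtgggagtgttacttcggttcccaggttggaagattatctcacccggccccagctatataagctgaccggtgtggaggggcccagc
BST2 (chr19:17405631-17405880, minus): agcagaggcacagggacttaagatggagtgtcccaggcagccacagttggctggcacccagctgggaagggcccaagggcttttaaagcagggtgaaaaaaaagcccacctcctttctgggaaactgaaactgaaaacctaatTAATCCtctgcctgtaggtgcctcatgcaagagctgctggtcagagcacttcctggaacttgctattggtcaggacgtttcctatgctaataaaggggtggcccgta
FST (chr5:53480379-53480628, plus): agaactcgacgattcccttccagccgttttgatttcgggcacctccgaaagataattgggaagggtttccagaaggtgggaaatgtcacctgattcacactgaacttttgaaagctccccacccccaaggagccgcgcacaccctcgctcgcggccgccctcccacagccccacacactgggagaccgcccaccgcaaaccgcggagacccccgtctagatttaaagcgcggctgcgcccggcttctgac
PAMR1 (chr11:35530301-35530550, minus): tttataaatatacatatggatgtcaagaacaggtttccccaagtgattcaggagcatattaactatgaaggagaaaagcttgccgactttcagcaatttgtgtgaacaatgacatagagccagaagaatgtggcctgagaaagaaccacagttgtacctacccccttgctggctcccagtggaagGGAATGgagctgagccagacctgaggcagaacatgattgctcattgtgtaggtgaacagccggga
SAMD11 (chr1:925481-925730, plus): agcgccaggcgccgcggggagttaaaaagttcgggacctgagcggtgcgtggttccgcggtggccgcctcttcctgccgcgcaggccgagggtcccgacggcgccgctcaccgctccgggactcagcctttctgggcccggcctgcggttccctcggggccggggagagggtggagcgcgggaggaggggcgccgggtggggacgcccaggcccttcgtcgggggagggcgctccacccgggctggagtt

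The ANKRD1 window holds the TEAD motif GGAATG at 220 and 128 bases before the start and the SMAD box CAGACA at 142. The PAMR1 window holds GGAATG at 65 bases and the BST2 window the OTX and GSC motif TAATCC at 107 bases, and those of FST and SAMD11 hold none of the motifs searched. RefSeq promoters, here the 250 bases before and 50 after the start, were matched for 83 of the 106 genes and searched on both strands. The SMAD box was in 16.9% of the 83 and in 16.9% of all 35116 promoters of the table, so the shares were equal. GGAATG was in 18.1% against 14.03%, the AP-1 motifs TGAGTCA or TGACTCA in 7.23% against 4.95%, TAATCC in 8.43% against 6.36% and the FOXA motif TGTTTAC in 4.82% against 3.42%. The FOXH1 motifs AATCCACA or AATACACA were in 1.20% against 1.58%, and neither the SOX motif CCATTGTT (0.877% of all) nor the SMAD palindrome GTCTAGAC (0.202% of all) was in any of the 83. TAATCC can overlap AATCCACA. These are matches of letters, with no test of binding.

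TGFB and SB4 in high Wnt were also set against each other. With TGFB 36 of the 106 were higher, or 34.0%, where 13% of all genes tested were higher, and 16 were lower, or 15.1%, against 11.2% of all genes. The median log2 difference was 0.28, and that of all genes 0.00. PAPPA, at 42.6 and 39.6 CPM with TGFB and 1.03 and 1.95 CPM with SB4, differed by 4.75 (SE 0.24, edgeR adjusted p = 6.27e-10), and PAMR1 by 2.93 (SE 0.12, edgeR adjusted p = 8.02e-11). On the lower side GDF10 differed by -3.54 (SE 0.20, edgeR adjusted p = 2.40e-09) and CNTNAP4 by -2.82 (SE 0.18, edgeR adjusted p = 7.50e-09). Of the 4 proteases and protease inhibitors among the 106, PAMR1, PAPPA and the clotting factor F10 were called higher with TGFB than with SB4, and CST1 was not called. Of the 39 TGF-beta targets and feedback genes, TGFB raised 4 and lowered 3 against high Wnt alone, whereas SB4 raised 0 and lowered 26 (edgeR). Over all genes tested, TGFB raised 3.75% and lowered 3.49%, and SB4 raised 9.94% and lowered 11.6%. Only FST and FN1 of the 39 belong to the 106. With TGFB against SB4, 26 of the 39 were higher (edgeR), FST among them and FN1 not. Without high Wnt + SB4 replicate 1 the higher count was 24.

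**Figure D5:**
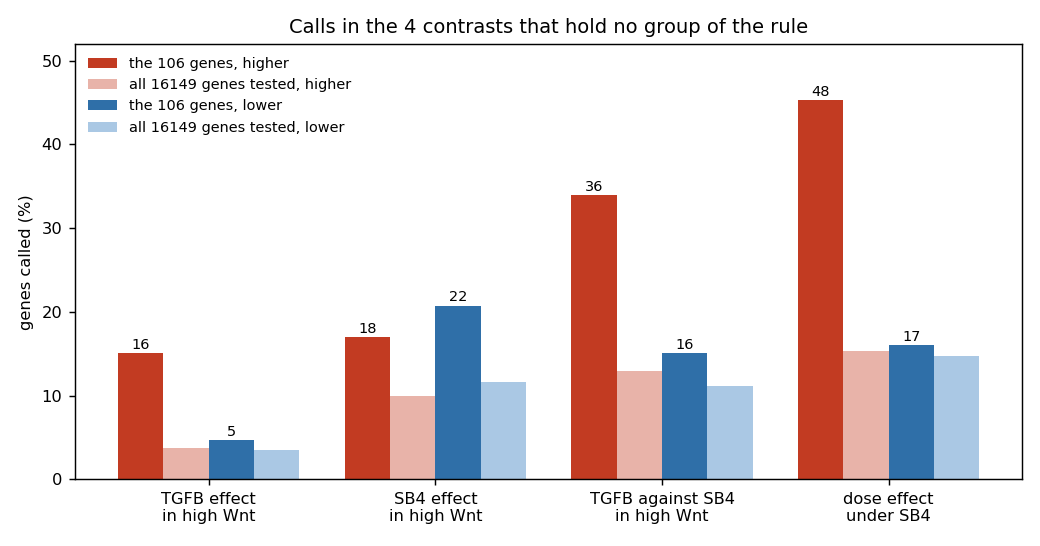
Percent of the 106 genes (dark bars, with the number of genes) and of all 16149 genes tested (pale bars) called higher or lower by edgeR at an adjusted p under 0.05 in the 4 contrasts that hold no group of the rule. The share called higher was 45.3% against 15.3% for the Wnt dose under SB4 and 34.0% against 13% for TGFB against SB4.

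The Wnt dose itself was compared under SB4, with the TGF-beta receptors blocked in both groups. High Wnt + SB4 was above low Wnt + SB4 for 48 of the 106 genes, or 45.3%, where 15.3% of all genes tested were higher, and below it for 17, or 16%, against 14.8% of all genes. The median log2 difference of the 106 was 0.89 and that of all genes 0.00. Markers moved between these groups as well, and their part was not tested. From low Wnt + SB4 to high Wnt + SB4, mesoderm markers went from 4.86 and 5.18 CPM to 85.8 and 70.6 CPM. MEOX1 made up most of this, at 0.547 and 0.366 CPM and then 61.4 and 49.6 CPM. Surface ectoderm and placode markers outside the 106 went from 7.71 and 8.48 CPM to 52.5 and 45.5 CPM. Endothelium markers went from 115 and 115 CPM to 26.1 and 25.9 CPM, with EMCN at 0 counts in all 4 libraries. That fall lay in TEK, at 111 and 112 CPM and then 21.4 and 21.7 CPM. TIE1 did not fall, at 1.52 and 1.31 CPM and then 2.26 and 2.18 CPM, so the sum mostly follows a single gene. Smooth and cardiac muscle markers went from 522 and 558 CPM to 257 and 288 CPM. CNTNAP4 was at 0.364 and 0.105 CPM in low Wnt + SB4 and 47.4 and 53.2 CPM in high Wnt + SB4, a log2 difference of 7.71 (SE 0.27, edgeR adjusted p = 1.10e-12). TMEM132C, a membrane protein, was at 4.62 and 4.71 CPM and at 315 and 326 CPM, a log2 difference of 6.06 (SE 0.14, edgeR adjusted p = 1.63e-14). PAX3 was at 16.7 and 17.3 CPM and at 241 and 245 CPM, a log2 difference of 3.80 (SE 0.13, edgeR adjusted p = 5.53e-13). Of the 9 members in the list of homeobox gene names 4 rose and 3 fell with the dose, in a list where 72 of 149 rose and 28 fell. The 9 include LHX5-AS1, a noncoding RNA that the list holds by its name.

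Of the genes that fell with the dose under SB4, SFRP4 had the smallest p, at 12.6 and 14.4 CPM and then 0.258 and 0.631 CPM, a log2 difference of -4.91 (SE 0.30, edgeR adjusted p = 9.90e-10). TFAP2A fell from 3.28 and 3.04 CPM to 0 and 0.287 CPM, with a log2 difference of -4.35 (SE 0.56, edgeR adjusted p = 9.86e-06). IRX1 fell from 31.6 and 30.3 CPM to 8.71 and 8.84 CPM, with a log2 difference of -1.85 (SE 0.20, edgeR adjusted p = 1.12e-06). ERBB4, a receptor for neuregulins, was at 2.98 and 2.46 CPM in low Wnt + SB4 and had no counts in high Wnt + SB4, at least 29.8-fold lower (edgeR adjusted p = 2.59e-05). Under SB4 the 106 genes thus held members that were higher at the higher Wnt dose, such as PAX3, and members that were lower, such as SFRP4.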

How the data were processed

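Messenger RNA was measured in 14 libraries, 2 per group. The authors deposited a single table with raw counts for each gene and its exon length. The submitters' processing notes name bcl2fastq, HISAT2 2.2.0, SAMtools 1.10, featureCounts 2.0.0 and the hg38 build. Per the file headers, read pairs were counted over exons of a UCSC hg38 annotation, with reverse strandedness. Read trimming is not given in the sources. Replicate libraries were further apart than counting noise alone would put them (5.26 to 14.1 for chi-square over its degrees of freedom). A count of 0 in a library allows up to 3 counts, or 0.157 to 0.276 CPM, for counting error only.

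CPM used the column totals. Tests used edgeR 4.0.16 in R 4.3.3: filterByExpr (16149 genes), TMM scaling, a quasi-likelihood fit with a mean for each group over the 14 libraries, and Benjamini-Hochberg adjustment over all genes, with calls at an adjusted p under 0.05. SE is the log2 fold change divided by the square root of F. The script was tested on simulated data. The genes, the 36 gene lists and the 10 marker lists were chosen with earlier results of these data known. Comparisons that hold low Wnt + TGFB, low Wnt or hESC were used by the rule and are given without a test. Genes were named by their level per kb, by the smaller ratio, by the smallest p per contrast, by list and by the thresholds; others are named where a set is given in full, after their values were seen. As alternatives, DESeq2 1.42.0, scaling by RLE or by library totals, no low-count filter, a fit of the compared groups alone, a replicate block, a 2-fold limit, other thresholds of the rule, and the omission of each library were run.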

Additional observations from a re-analysis of the deposited data

Results flagged for a closer look

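Of the 106 genes, 5 fell with TGFB in high Wnt in both libraries, although both low Wnt + TGFB libraries stood above low Wnt. That is 4.72%, near the 3.49% of all genes tested that were called lower, so nothing is read from their number. Their log2 differences in high Wnt were -1.76 for CNTNAP4, -1.02 for VWF, -0.78 for BMP2, -0.65 for BLACAT1 and -0.63 for GAD1. The rise in low Wnt was fixed by the choice of genes, and the difference between the 2 doses was not tested.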

How the results depend on the processing

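For TGFB in high Wnt, the 16 higher became 27 without a filter and 7 when a 2-fold change was also required (log2 of 1 or more), and 9 to 18 when single libraries were left out. The 5 lower became 8 with DESeq2, 8 without a filter and 2 with the 2-fold limit, and 1 to 7 without single libraries. For SB4 in high Wnt, the 2-fold limit left 10 of 18 higher and 12 of 22 lower, and single libraries moved the higher count between 10 and 18. For TGFB against SB4, it left 8 of the 16 lower. The rule itself gave 70 genes when the lower low Wnt + TGFB library had to pass the higher library of each other group, 54 at 3 times, 228 at 1.5 times, 67 at 10 CPM and 248 at 1 CPM, and 91 of the 106 with TMM library sizes. Leaving out single libraries gave 94 to 127. The causes were not tested. Named genes had no reversal in any alternative run, and 220 of their 3187 values lost the call.

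Same-numbered libraries share only a number: the correlation of their deviations was 0.119, 0.206, 0.111 and 0.0566 in the 4 contrasts. With the replicate block 18 genes were higher and 6 lower with TGFB in high Wnt, 21 and 23 with SB4, 37 and 17 for TGFB against SB4, and 49 and 17 for the dose under SB4. With 2 libraries per group, a gene that was not called is not shown to be unchanged.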
